A study of Homo sapiens with 6 samples.

Results

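The poly(ADP-ribose) polymerase (PARP) family was followed in SW1353 cells, a human chondrosarcoma line often used in place of chondrocytes, after a short exposure to interleukin-1 alpha (IL-1). The 10 genes described were taken by name, PARP1, PARP2, PARP3, PARP4, PARP8, PARP9, PARP10, PARP12, PARP14 and PARP16, out of 18848 genes named on the array, and all of their 17 probes were examined. Cells treated for 6 h with 0.5 ng/ml IL-1 (3 arrays) and control cells not given IL-1 (3 arrays) had both been without serum for roughly 20 h. Total RNA was hybridised to Illumina bead arrays. The labels name no genetic change in either group and do not state that there was none. Both groups came from a single cancer cell line. Each of the 10 genes had a probe well above background, meaning a detection p under 0.01, on all 3 control arrays.

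PARP enzymes move ADP-ribose from NAD onto proteins or nucleic acids. PARP1, PARP2 and PARP3 are recruited to DNA breaks, and the first pair build long ADP-ribose chains there that gather repair proteins. PARP9, PARP10, PARP12 and PARP14 belong to a branch that adds single ADP-ribose units or, for PARP9, works through a partner, and they are known as interferon-induced genes that take part in antiviral and inflammatory responses. Type I interferon acts through a complex that holds IRF9 at a DNA element called the interferon-stimulated response element (ISRE), interferon gamma acts at the gamma-activated site (GAS), and IL-1 mainly through NF-kB at kB sites.

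Because the interferon-linked members are known for such elements, the RefSeq promoter windows (GRCh38.p14, 250 bases before to 50 after an annotated start) of the family were searched on both strands for the ISRE letters (GAAA, any 2 bases, GAAA), the GAS letters (TTC, any 3 bases, GAA) and the kB letters (GGG, any 2 bases, TTTCC). Of the 10 genes 8 had a window, and PARP4 and PARP10 did not. The ISRE letters were found in 3 of the 3 interferon-linked genes with a window, PARP9, PARP12 and PARP14, in 0 of the 3 DNA-repair genes and in 0 of the 2 others (PARP8 and PARP16). Of 27305 genes with a window, 4.38% held them in at least 1 window (3.57% of 35116 windows). The stretches around the 3 sites read as follows on the strand of each gene, with the ISRE letters in capitals, and for PARP14 the GAS letters as well, which lie 2 bases before its ISRE.
PARP9 (chr3:122564312-122564361, minus strand): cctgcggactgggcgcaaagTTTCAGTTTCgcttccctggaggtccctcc
PARP14 (chr3:122680790-122680838, plus strand): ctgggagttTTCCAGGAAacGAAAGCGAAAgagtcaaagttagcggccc
PARP12 (chr7:140062952-140062981, minus strand): tttcgccggcccggggccgcTTTCGGTTTC

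In PARP9 and PARP12 the element reads in the reverse direction, so it appears as TTTC repeated. It begins 41 bases before the nearer of the 2 annotated starts of PARP9, 29 before the start of PARP14 and 10 before that of PARP12. The same 10 bases at chr3:122564332-122564341 also lie at the start of DTX3L, which encodes the ubiquitin ligase partner of PARP9 and runs the other way, 38 bases from that PARP9 start. PARP9, DTX3L, PARP15 and PARP14 are neighbours within 203 kb of chromosome 3. Of the GAS letters, present for 9.38% of genes, PARP2 held a copy as well as PARP14. The kB letters, present for 2.33%, were in none of the windows of the 8 genes. Only this form of the kB letters was searched, so their absence does not show that a kB site is missing. At so low a share, a lack among 8 genes says little. A match is a run of letters and not a measured binding site.

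The sample titles come in 2 kinds, Allstars (replicates 1 and 2 of each group) and Sample (replicate 3 of each group), whose meaning the labels do not give. The Sample arrays stood apart, with median signals of 95.3 and 91.5 against 60.3 to 67.2 on the Allstars arrays, so results are given with title kind as a block where that changes a call. Between 11954 and 13357 of 48784 probes per array were well above background, and 9078 genes were tested. No source says whether the arrays of a group came from separate cultures, and each p-value reflects only how far these arrays scatter, which may be technical. Of the chondrocyte markers 3 of 11 were measurable (SOX9, HAPLN1 and COL11A1), COL2A1 and ACAN were not well above background on any array, the mesenchymal markers gave 6 of 7, the epithelial ones 0 of 6 and the leukocyte ones 3 of 9 with a named probe (CD68, CSF1R and HLA-DRA), with PTPRC, CD14 and ITGAM below that detection limit throughout. In these lists 1 chondrocyte marker fell, SOX9 (-0.94 ± 0.18, limma adjusted p = 0.0186), and 1 leukocyte marker rose, HLA-DRA, also an interferon gamma target (2.00 ± 0.42, limma adjusted p = 0.0249), and the part of either in the results was not tested. HLA-DRA was well above background on 1 of the 3 control arrays, so the size of its rise is not firm, and it was 1.00 with the authors' deposited log2 values (limma adjusted p = 0.0928). With title kind as a block CD68 and COL6A1 also rose and CSF1R and COL1A2 fell (limma adjusted p = 0.0106, 0.0437, 0.00170 and 0.000198). The SOX9 call was lost without control replicate 1 or 2 or either Allstars IL-1 array (limma adjusted p = 0.0867, 0.0946, 0.0921 and 0.0850), and the HLA-DRA call without control replicate 1 or those IL-1 arrays (limma adjusted p = 0.0929, 0.0894 and 0.0887). In RNA of whole cultures, more RNA per cell and more cells of a kind cannot be told apart.

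All 4 interferon-linked PARP genes rose with IL-1, between 6.07-fold and 6.63-fold after background correction, while none of the 3 DNA-repair PARP genes passed the test. With the authors' deposited log2 values the rises of PARP9, PARP12, PARP14 and PARP10 were smaller, at 2.50, 2.04, 2.03 and 1.80 on the log2 scale, and without background correction they were 2.54, 2.14, 2.15 and 1.92. All passed the test in both settings. Of the 9078 genes, 6.08% passed upward and 2.94% downward by limma at a Benjamini-Hochberg adjusted p under 0.05. With arrays scaled to equal medians in place of quantiles, 165 genes rose and 6 fell, against 552 and 267. SEs were wider under that scaling, at 0.71 against 0.14 for PARP9 and 0.70 against 0.13 for PARP1. Their changes were 2.63 and -0.15, against 2.73 and -0.09. A call lost under that scaling need not mean that the rise was gone. The median log2 fold change of all genes was -0.11 (-0.22 with equal medians), so a gene near that value moved as the typical gene did. The values below are background-corrected, quantile-normalized log2 signals, and changes are log2 fold changes ± SE with IL-1 minus control.

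PARP9 is a catalytically weak member that binds DTX3L and takes part in interferon signalling. Its log2 signals were 8.63, 8.68 and 8.63 in the controls and 11.52, 11.42 and 11.19 with IL-1. All IL-1 arrays lay above all control arrays, with a gap several times the spread within either group. The change was 2.73 ± 0.14, which is 6.63-fold (limma adjusted p = 1.53e-05). A second PARP9 probe, well above background on 2 of the 3 control arrays, read 6.68, 5.73 and 6.20 and then 8.34, 8.39 and 8.70. Its difference was 2.28 ± 0.26, or 4.84-fold (limma adjusted p = 0.00141 among 13017 probes).

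PARP14 encodes a large enzyme with macrodomains that adds single ADP-ribose units and is known for its role in STAT6 signalling. It gave log2 signals of 6.89, 6.79 and 6.74 in the controls and of 9.61, 9.57 and 9.39 with IL-1. The groups were again far apart, and each was tight. The difference was 2.72 ± 0.14, or 6.58-fold (limma adjusted p = 2.01e-05).

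PARP12 encodes a zinc finger member that restrains several RNA viruses. Its control arrays read 6.94, 7.38 and 7.10 and its IL-1 arrays 9.80, 9.91 and 9.52 on the log2 scale. No IL-1 array came near a control array. The rise was 2.60 ± 0.18, which is 6.07-fold (limma adjusted p = 7.37e-05).

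PARP10 encodes a mono-ADP-ribosyltransferase first described as a partner of MYC. Its signals were 6.61, 6.52 and 6.06 in the controls and 9.39, 9.47 and 8.14 with IL-1, so replicate 3 was the lowest array of both groups, and the groups did not overlap. The difference was 2.60 ± 0.36, or 6.08-fold (limma adjusted p = 0.00354), and its SE was the largest of the 10 genes. On the control arrays the lowest signals well above background were 5.95, 6.06 and 5.86, not far below those of PARP10. The size of its rise is therefore not firm, and it was 1.80 with the authors' deposited log2 values.

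**Figure D1:**
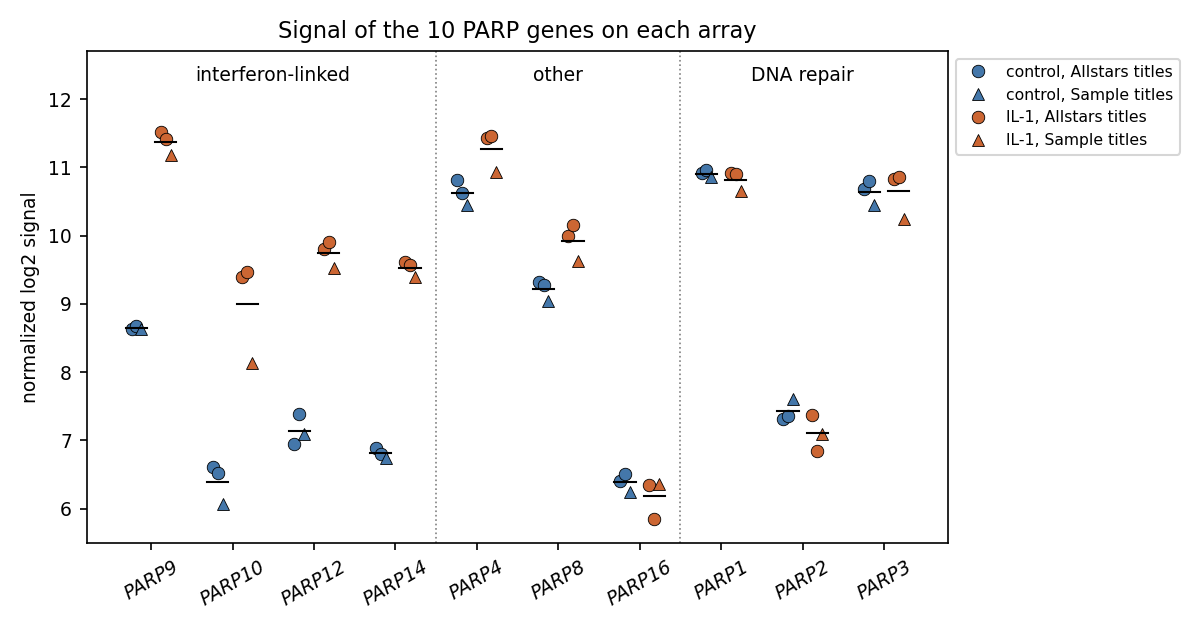
Normalized log2 signal (vertical axis) of the 10 PARP genes on each of the 6 arrays, with control in blue and IL-1 in orange, circles for Allstars titles, triangles for Sample titles and black lines for group means (n = 3). The 4 interferon-linked genes have no overlap between groups, and the arrays of the 3 DNA-repair genes overlap; heights of different genes come from different probes and are not to be compared.

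With background correction the 4 changes were 2.73, 2.72, 2.60 and 2.60, less alike in the settings without it given above, and ranked 118, 119, 128 and 129 from the top among the 9078 genes. After the control mean of each gene was subtracted, the gene with the most similar pattern over the 6 arrays was PARP14 for PARP9 and PARP9 for PARP14, with a root mean square difference of 0.06 on the log2 scale. Likeness was taken from the background-corrected values only, and the size of the rise counts in it. With the authors' deposited log2 values PARP9 rose by 2.50 and PARP14 by 2.03, further apart. PARP12 was nearest to TNF (0.14), EGFL6 (0.15) and PARP9 (0.16). For PARP10 the nearest was CASP1, an inflammatory caspase (0.13), followed by FFAR2 and ADAMTS9 (both 0.18). TNF and IL36RN (0.13 and 0.15) came next for PARP9, and TNF and TAP2, a peptide transporter subunit, for PARP14 (0.14 and 0.15). TNF, IL36RN, EGFL6 and FFAR2 were not well above background on any control array, so their likeness rests on control values that carry only an upper limit. ADAMTS9 was not well above background on every array either, and its rise was 1.45 with the authors' deposited log2 values against 2.57.

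Among the members outside both groups, PARP8 rose and PARP4 and PARP16 did not pass. PARP8 encodes a little-studied mono-ADP-ribosyltransferase, and its arrays read 9.32, 9.28 and 9.05 in the controls and 10.00, 10.15 and 9.63 with IL-1. The groups did not overlap. The difference was 0.71 ± 0.17, which is 1.64-fold (limma adjusted p = 0.0437). That call was lost without control replicate 1, 2 or 3 (limma adjusted p = 0.122, 0.131 and 0.0851) and without IL-1 replicate 1 or 2 (limma adjusted p = 0.167 and 0.166), and held without IL-1 replicate 3 (limma adjusted p = 0.0125). With title kind as a block the limma adjusted p was 2.66e-05. It was lost as well with arrays scaled to equal medians, where the change was 0.59 ± 0.72 (limma adjusted p = 1.00). The other 4 PARP8 probes were not well above background on any array.

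PARP4 encodes the vault particle PARP. Its log2 signals were 10.82, 10.63 and 10.44 in the controls and 11.42, 11.46 and 10.94 with IL-1. Every IL-1 array was above every control array, the lowest of them by a narrow margin. The difference of 0.65 ± 0.18 (1.56-fold) missed the threshold (limma adjusted p = 0.0711) and passed with title kind as a block (limma adjusted p = 3.60e-05) and without IL-1 replicate 3 (limma adjusted p = 0.0130). MVP, the major vault protein, differed by 0.09 ± 0.19 (limma adjusted p = 0.859).

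PARP16 encodes a membrane-anchored enzyme of the endoplasmic reticulum. Its arrays read 6.40, 6.50 and 6.25 in the controls and 6.34, 5.84 and 6.36 with IL-1, where replicate 2 was not well above background, and the groups overlapped. It differed by -0.20 ± 0.23 (limma adjusted p = 0.688), with a 95% interval from -0.74 to 0.33. ATF6, an endoplasmic reticulum stress sensor, differed by 0.03 ± 0.13 (limma adjusted p = 0.924). The other such sensors listed, EIF2AK3 and ERN1, missed the detection filter and were not tested.

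Among the DNA-repair members, PARP1, the main sensor of DNA strand breaks, had log2 signals of 10.91, 10.97 and 10.85 in the controls and 10.91, 10.90 and 10.65 with IL-1. The groups overlapped and their means nearly coincided. The difference was -0.09 ± 0.13 (limma adjusted p = 0.761), with a 95% interval from -0.38 to 0.20.

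PARP2, which backs up PARP1 at strand breaks, read 7.31, 7.36 and 7.60 in the controls and 7.38, 6.85 and 7.10 with IL-1. The groups overlapped, since IL-1 replicate 1 was above 2 of the controls. The difference was -0.32 ± 0.20 (limma adjusted p = 0.418), with a 95% interval from -0.77 to 0.14. With title kind as a block and IL-1 replicate 1 left out, its limma adjusted p was 0.0316. A second PARP2 probe was well above background on 1 array of each group and was not tested.

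PARP3, an enzyme of double-strand break repair, read 10.68, 10.80 and 10.44 in the controls and 10.83, 10.86 and 10.25 with IL-1. The highest and the lowest array both belonged to the IL-1 group. The difference was 0.01 ± 0.20 (limma adjusted p = 0.994), with a 95% interval from -0.45 to 0.46. Another PARP3 probe, annotated to a different transcript record, differed by 0.34 ± 0.17 (limma adjusted p = 0.308), and passed with title kind as a block (limma adjusted p = 0.0346).

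**Figure D2:**
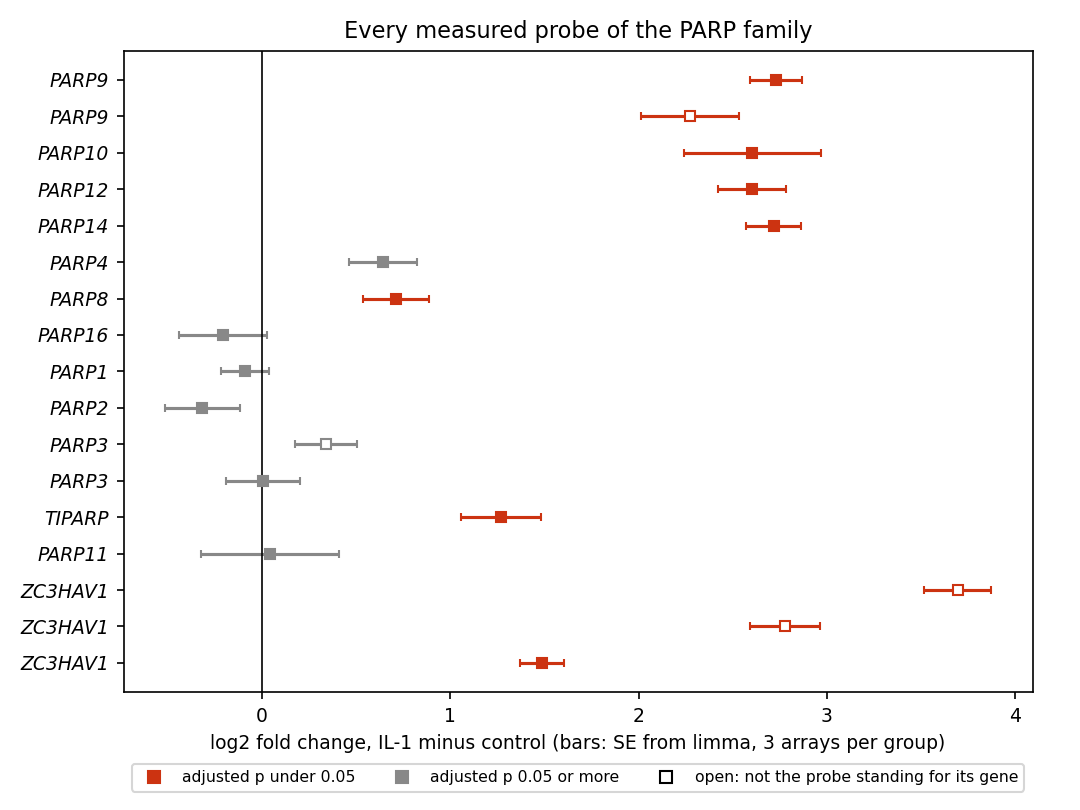
Log2 fold change (horizontal axis, IL-1 minus control) of each PARP family probe that was well above background on at least 3 arrays, with limma SE as bars; filled squares stand for the gene and open squares are further probes. Red marks an adjusted p under 0.05, reached by 6 of 12 probes of the 10 genes, all upward, against 5.71% of all 13017 probes.

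Set side by side, the mean log2 fold change was 2.66 over the 4 interferon-linked genes and -0.13 over the 3 DNA-repair genes, a difference of 2.80 that is a description with no test. Array by array, the mean log2 signal of the interferon-linked genes was 7.27, 7.34 and 7.13 in the controls and 10.08, 10.09 and 9.56 with IL-1. That of the DNA-repair genes was 9.63, 9.71 and 9.63 and then 9.71, 9.53 and 9.33. The first set of means was higher on every IL-1 array, and the second overlapped between the groups. In all, 5 of the 10 genes rose and 0 fell, against 6.08% and 2.94% of all 9078 genes. With title kind as a block 6 rose and 0 fell, where 35.2% of all genes changed (1181 upward and 2015 downward). The groups did not overlap for 6 of the 10 genes, each with IL-1 above control, against 28.2% of all genes (1000 above and 1556 below).

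Within the Allstars arrays the changes of PARP9, PARP10, PARP12 and PARP14 were 2.82, 2.87, 2.69 and 2.75. In the single pair of Sample arrays they were 2.55, 2.08, 2.43 and 2.65. The Sample pair gave the smaller rise for each of the 4, by the widest margin for PARP10. The difference of the response between title kinds passed for 0 of 9078 genes by limma's interaction test, in which the Sample kind has 1 array a group and all spread comes from the Allstars arrays, with 552 at an unadjusted p under 0.05, among them PARP10 as the single member (unadjusted p = 0.00980, limma adjusted p = 0.659). PARP4 and PARP8 rose less in the Sample pair too, at 0.50 and 0.58 against 0.72 and 0.77. PARP3 and PARP16 had opposite signs in the 2 kinds, with 0.11 and -0.36 in the Allstars arrays and -0.19 and 0.11 in the Sample pair, with limma adjusted p = 0.847 and 0.963 for these differences. With so few arrays the test says little about sameness, and it passed for 5 genes without background correction and 45 with the authors' values.

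**Figure D3:**
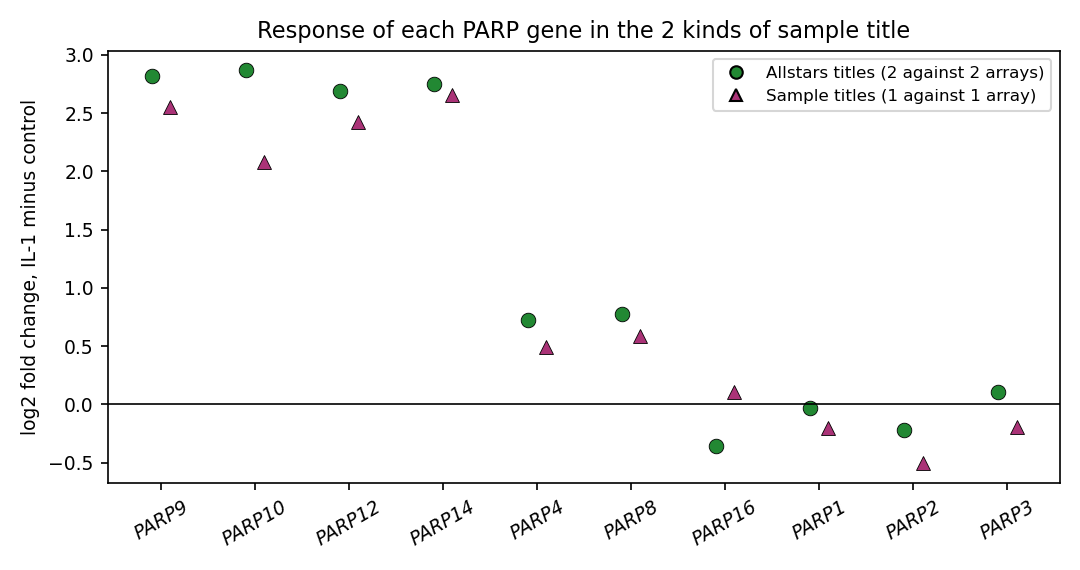
Log2 fold change (vertical axis, IL-1 minus control) of each PARP gene within the Allstars arrays (green circles, 2 against 2) and within the single Sample pair (purple triangles, 1 against 1). The interferon-linked genes lie between 2.08 and 2.87 in both, and the DNA-repair genes between -0.50 and 0.11.

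Of the 7 other genes of the family 3 could be tested. ZC3HAV1, also called PARP13 or ZAP, encodes an antiviral protein that binds viral RNA and has no ADP-ribosylating activity. Its main probe read 9.66, 9.68 and 9.75 in the controls and 11.27, 11.12 and 11.17 with IL-1, a rise of 1.49 ± 0.12 (limma adjusted p = 0.000165). With arrays scaled to equal medians this call and that of TIPARP were lost (limma adjusted p = 1.00 for both). Its other probes rose more, by 2.78 ± 0.19, or 6.86-fold, and by 3.69 ± 0.18, or 12.9-fold (limma adjusted p = 7.65e-05 and 1.41e-05). The last of these read 6.05, 5.84 and 6.13 in the controls, where it was well above background on 2 arrays, and 9.92, 9.71 and 9.47 with IL-1. It is annotated to a different RefSeq transcript than the others, which share a record and still differed in the size of the rise. The 6.86-fold probe read 6.27, 6.25 and 6.76 in the controls. On those arrays the lowest signals well above background were 5.95, 6.06 and 5.86. The sizes of the 6.86-fold and 12.9-fold rises are therefore not firm.

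TIPARP, also called PARP7, adds single ADP-ribose units and limits the aryl hydrocarbon receptor. Its signals were 8.08, 8.03 and 8.69 in the controls and 9.70, 9.57 and 9.34 with IL-1, without overlap. It rose by 1.27 ± 0.21 (limma adjusted p = 0.00844, or 0.0506 without IL-1 replicate 1). PARP11 differed by 0.04 ± 0.37 (limma adjusted p = 0.968), and was not well above background on IL-1 replicate 2. The tankyrases TNKS and TNKS2, PARP6 and PARP15 did not reach a detection p under 0.01 on any of the 6 arrays and were not tested. ZC3HAV1 and TIPARP held no ISRE letters in their windows, and ZC3HAV1 held the GAS letters.

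The partners and erasers of ADP-ribosylation gave 2 rises and 0 falls among 10 tested genes, with a list median of -0.21 against -0.11 for all genes. Of all 9078 genes 6.08% rose and 2.94% fell. DTX3L read 6.21, 6.00 and 5.46 in the controls, where it was well above background on 1 array, and 7.94, 7.70 and 7.07 with IL-1. It rose by 1.68 ± 0.30 (limma adjusted p = 0.0119), and this call was lost without IL-1 replicate 1 or 2 (limma adjusted p = 0.0612 and 0.0590). Its size is not firm, since it was 1.01 without background correction and 0.86 with the authors' values. With arrays scaled to equal medians the calls of DTX3L and ADPRS were lost (limma adjusted p = 0.457 and 1.00). The change of ADPRS was 0.77 ± 0.73 in that setting. ADPRS, a hydrolase that removes ADP-ribose from serine, rose by 0.93 ± 0.15 (limma adjusted p = 0.00831, or 0.0539 without IL-1 replicate 1). HPF1, the factor that directs PARP1 and PARP2 to serine, differed by -0.18 ± 0.44 (limma adjusted p = 0.877). PARG, which breaks down ADP-ribose chains, was well above background on 1 array and was not tested. With title kind as a block, 4 of the 10 fell, where 2015 of all 9078 genes did.

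Base excision and strand break repair genes gave 0 rises and 1 fall among 21 tested, with a median of -0.16, or 0 rises and 6 falls with title kind as a block. Under that block 1181 of all 9078 genes rose and 2015 fell, and without it 6.08% rose and 2.94% fell. The gene that fell was APEX1, the main abasic site endonuclease, by 0.48 ± 0.11 (limma adjusted p = 0.0352), from 11.82, 11.80 and 11.93 to 11.29, 11.38 and 11.46. Its call held without IL-1 replicate 3 and was lost in each of the 5 fits that left out another array (limma adjusted p up to 0.162, without IL-1 replicate 1), and it was lost with equal medians (1.00), the authors' values (0.176), no detection filter (0.0647) and no trend (0.0753).

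NAD, the substrate of every active PARP, is made from nicotinamide by NAMPT, and that gene rose. NAMPT read 7.05, 7.32 and 8.11 in the controls and 10.14, 9.73 and 10.72 with IL-1. No arrays overlapped, and the rise was 2.70 ± 0.33, which is 6.51-fold (limma adjusted p = 0.00195). NNMT, which methylates nicotinamide, rose by 1.22 ± 0.26 (limma adjusted p = 0.0277), but not in the fits that dropped control replicate 1, control replicate 2, IL-1 replicate 1 and IL-1 replicate 2 in turn (limma adjusted p = 0.0859, 0.113, 0.114 and 0.0829). These were the 2 rises among 9 tested genes of the NAD synthesis list, which also holds NNMT, whose product does not make NAD. In that list 0 fell, where 6.08% of all 9078 genes rose and 2.94% fell. With title kind as a block 1 fell, NNT, a mitochondrial transhydrogenase, by 0.28 (limma adjusted p = 0.0268). The NNMT call was also lost with equal medians and with the authors' values (limma adjusted p = 1.00 and 0.0594). Among 5 other consumers of NAD 1 fell, the mitochondrial deacylase SIRT5, by 0.63 ± 0.14 (limma adjusted p = 0.0305). That call was lost whichever of the 6 arrays was dropped, with a limma adjusted p between 0.0503 and 0.135, and passed with title kind as a block (limma adjusted p = 0.000202).

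Interferon signalling genes gave 5 rises and 0 falls among 10 tested, with a median of 0.77, or 8 rises with title kind as a block. Under that block 1181 of all 9078 genes rose, and without it 6.08% did. IRF1, a transcription factor induced by interferon gamma and by NF-kB, rose by 2.57 ± 0.24 (limma adjusted p = 0.00040). JAK2, a kinase that associates with cytokine receptors, rose by 1.91 ± 0.18 and IRF9 by 1.66 ± 0.13 (limma adjusted p = 0.000463 and 0.000206). With arrays scaled to equal medians the calls of JAK2 and IRF9 were lost (limma adjusted p = 0.589 and 0.716), and that of IRF1 held. IFNB1, encoding interferon beta and singled out with its value known, had a detectable probe on 1 of the 6 arrays. IRF7, another gene of the list, was not tested, since none of its 3 probes was well above background on any array.

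**Figure D4:**
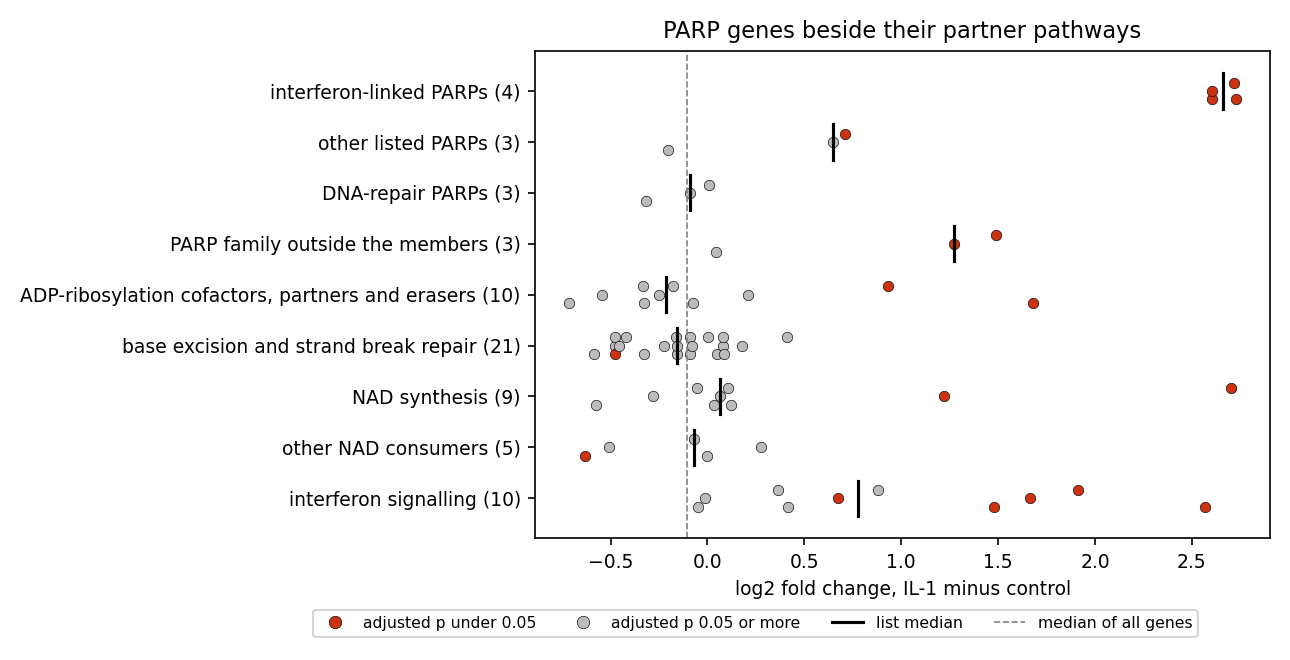
Log2 fold change (horizontal axis, IL-1 minus control) of each tested gene in the PARP groups and 6 related lists, with the number of tested genes in brackets, red for an adjusted p under 0.05, black bars for list medians and a dashed line for the median of all genes (-0.11). The interferon-linked PARP genes lie at 2.60 to 2.73, with NAMPT at 2.70 and IRF1 at 2.57. Of the 21 repair genes 0 rose and 1 fell, against 6.08% and 2.94% of all 9078 genes.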

How the data were processed

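Per the file headers, the authors' deposited table holds probe intensity (48784 probes) with the detection p-value of every probe on every array, not normalized. The authors' deposited log2 values of the same arrays were used as an alternative. Their medians were 6.50 and 6.49 on the Sample arrays and 5.86 to 5.87 on the Allstars arrays, so the title kinds differ in scale there. The submitters' processing notes list lumi, whose settings are not given in the sources used here. Signals were corrected and quantile normalized with neqc (limma 3.58.1, R 4.3.3, offset 16). A probe was kept if its detection p was under 0.01 on 3 or more arrays (13017 probes, 11408 of them with 1 gene), named through GEO's platform annotation, and the probe with the highest mean stood for its gene (9078 genes). Tests used lmFit and eBayes with a trend, two-sided, over all genes, with no block, and were tested on simulated data. Named were all PARP genes and probes, the 3 called genes of largest change per list, DTX3L, HPF1, PARG, NAMPT, IRF1 and IRF9, and the 3 genes nearest in pattern to each interferon-linked member; 1 further gene of the rule is not reported here. Members and lists were chosen with earlier results of these data known.

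Alternatives were replicate and title blocks, Allstars arrays alone, other background corrections, scalings, filters and probe rules, array weights, eBayes without a trend, and leaving out each array. Leaving out arrays under the title block was added after the data were seen. No 2 arrays held identical values. The number of arrays limits the precision.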

Additional observations from a re-analysis of the deposited data

How the results depend on the processing

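PARP9, PARP10, PARP12 and PARP14 rose in each of the 25 alternatives, with limma adjusted p no higher than 0.0145, 0.0304, 0.0434 and 0.0270. PARP1 and PARP3 passed in none, and the sign of PARP3 changed among them. The numbers of replicates 1 and 2 are shared by both groups; their deviations correlated at 0.08 over 9078 genes, and nothing else pairs them. With the replicate number as a block, 3323 genes changed (1214 rose, 2109 fell), and PARP4 passed as well; it did so with title kind as a block (3196, 1181 and 2015), in the Allstars arrays alone (2582, 1048 and 1534), with array weights (2941, 1154 and 1787) and with the authors' deposited log2 values, where 170 genes fell. Without the quantile step and with equal medians, 171 genes changed (165 and 6), the median of all genes was -0.22, and PARP8, ZC3HAV1, TIPARP, DTX3L, ADPRS, JAK2, IRF9, CASP1, NNMT, APEX1, SIRT5, SOX9 and HLA-DRA did not pass. Nor did PARP8 with detection on all 6 arrays, with no trend or with no detection filter, where 170 genes fell. With equal medians the SE of PARP8 was 0.72, against 0.17 in the main fit. The main counts were 819, 552 and 267. Leaving out 1 array gave 426 to 965 genes (350 to 612 rose, 67 to 353 fell), 4 to 6 members called and 5 to 7 member probes; with title kind as a block it gave 2357 to 2810 (1009 to 1078 and 1333 to 1739). The interferon-linked minus DNA-repair difference of 2.80 was 2.28 without background correction and 2.18 with the authors' values, and 2.71 to 2.88 when an array was left out. The interaction test passed for 5 genes without background correction and 45 with the authors' values. The cause of these shifts was not tested.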
